A study of Arabidopsis thaliana with 2 samples.

Results

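VSP1 (AT5G24780) and VSP2 (AT5G24770), which encode vegetative storage proteins, and CORI3 (AT4G23600), a gene named for its induction by coronatine, were examined in leaves of *Arabidopsis thaliana*. They were found by locus identifier in the authors' table of transcripts higher in WRKY75 RNAi, where these 3 loci have 7 transcript models, of 1360 models in that table and 2358 models in both deposited gene tables. There were 2 libraries of polyadenylated RNA, both from the third and the fourth leaves of 28-day-old plants of ecotype Col-0. One came from WRKY75 RNAi plants, where RNA interference is directed at WRKY75, a transcription factor gene, and the other from Col-0 wild type. The sources used do not give the promoter of the RNAi transgene, the number of transgenic lines or the number of plants pooled per library.

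Vegetative storage proteins are acid-phosphatase-like proteins that accumulate in young leaves and flowers and, in older leaves, after wounding, insect feeding or jasmonate. VSP2 itself has acid phosphatase activity. Jasmonoyl-isoleucine is perceived by the receptor COI1, which leads to the breakdown of JAZ repressors and frees MYC transcription factors. VSP1 and VSP2 are standard markers of this MYC branch, which is known to oppose an ethylene-dependent branch marked by PDF1.2 genes. CORI3 encodes a cystine lyase of the tyrosine aminotransferase family. It also carries the name JASMONIC ACID RESPONSIVE 2, and coronatine is a bacterial mimic of jasmonoyl-isoleucine.

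The sequences upstream of VSP1 and VSP2 are shown first because both genes had a similar difference between the libraries and lie near each other. They are also near copies, with 90.4% of aligned coding bases identical, and upstream sequences of no other pair were compared. Whether upstream sequence bears on the ratios was not tested. The genes are on the minus strand of chromosome 5, VSP2 at chr5:8500468-8502224 and VSP1 at chr5:8507590-8509201 in TAIR10.1, with 5365 bases between them. CORI3 is on the plus strand of chromosome 4, at chr4:12310379-12313212. These coordinates and sequences are from RefSeq's TAIR10.1 assembly and its annotation, whereas the submitters' notes name TAIR10, and 0 annotated genes overlap any of the 3 loci. The 250 bases before each annotated gene start are written 5′ to 3′ on the gene's strand, and capitals mark runs of at least 10 bases that both share in the same order without overlap.
VSP1, chr5:8509202-8509451: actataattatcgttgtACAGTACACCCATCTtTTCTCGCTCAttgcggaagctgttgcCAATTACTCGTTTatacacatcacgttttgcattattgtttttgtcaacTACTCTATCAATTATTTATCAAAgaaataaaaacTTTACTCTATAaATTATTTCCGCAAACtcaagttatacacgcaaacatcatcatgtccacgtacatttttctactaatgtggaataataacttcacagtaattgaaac
VSP2, chr5:8502225-8502474: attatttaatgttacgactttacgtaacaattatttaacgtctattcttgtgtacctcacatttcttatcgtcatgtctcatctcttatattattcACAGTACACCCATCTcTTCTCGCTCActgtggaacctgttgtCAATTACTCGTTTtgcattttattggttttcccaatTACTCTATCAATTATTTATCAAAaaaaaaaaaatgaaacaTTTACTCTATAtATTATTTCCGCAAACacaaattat

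In a local alignment of these stretches, 141 of 155 aligned bases (91.0%) were identical. The 6 runs in capitals held 87 bases, and the longest had 23. Both stretches lie outside the annotated transcripts of the 2 genes. The 500 bases before 5 annotated transcript starts (all but that of AT4G23600.2) were searched on both strands for 4 short motifs, with 40817 transcript starts of protein-coding genes as the comparison. The motifs were CACGTG and its relatives CACATG and AACGTG, to which MYC factors are known to bind, and TTGAC, the core of the element that WRKY factors bind. CACGTG was in 9.86% of all windows, CACATG in 20.7%, AACGTG in 13.3% and TTGAC in 67.0%.

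CACGTG was found once among the searched windows of the 3 genes, 109 bases before the start of the CORI3 model AT4G23600.3. That stretch is shown with the motif in capitals, and lies before the coding sequence, within the transcript of the longer model AT4G23600.1.
CORI3, chr4:12310498-12310527: atgttaatatccCACGTGagatatcaaatg

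Before the start of the VSP1 model AT5G24780.2, AACGTG was found at 157 bases and, on the opposite strand, at 414 bases. The nearer of these is shown in capitals, and lies within the transcript of AT5G24780.1, before its coding sequence. The farther one is the site 170 bases before the start of AT5G24780.1.
VSP1, chr5:8509097-8509126: tagcacagtctcAACGTGctctaaaaacga

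TTGAC was found on the opposite strand 148 bases before the start of the VSP1 model AT5G24780.1, which is the same site as the one 392 bases before the start of AT5G24780.2. Before VSP2 it was found at 114 and 302 bases, both on the opposite strand, and in the CORI3 windows there was no match. CACATG had 0 matches in the windows searched. A match describes letters only, and binding was not measured.

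The table of higher models held 4.32% of the 31475 models that the authors' ranks imply were tested. Since the 3 loci were taken from that table, their direction is given and nothing is read from the count of 3 of 3. At least 4-fold higher were 3 of 3, and at least 8-fold higher was 1 of 3, VSP1. Of the 1360 models in that table, 454 were at least 4-fold higher (1.44% of tested models) and 201 at least 8-fold higher (0.639%). For loci taken from that table, the fitting comparison is with its 1360 models and not with all tested models. The library totals behind the deposited values were 38042482 reads for WRKY75 RNAi and 41328980 reads for wild type. WRKY75 (AT5G13080) had 8.87 RPKM (reads scaled by the deposited length and the library total) in WRKY75 RNAi and 29.2 RPKM in wild type, 30.4% of the wild-type value. Since each genotype has a single library, there is no spread between replicates and no test was possible. Intervals are exact (Clopper-Pearson) 95% intervals and cover counting error only, with each read taken as an independent draw. Low read numbers among the listed loci were often even. Whether both reads of a fragment were counted was not tested, and if they were, all intervals given here are too narrow. In whole leaves more cells that hold a transcript cannot be told apart from more transcript per cell. Of 5 photosynthesis genes that mark leaves and 7 floral organ genes that mark flowers, another site of VSP1 and VSP2 expression, 0 were listed in either direction, which leaves their levels unknown here. Outside these lists, and picked after their values were seen, the floral gene SEP4 was listed as higher on 70 reads in WRKY75 RNAi and 32 reads in wild type (log2 ratio 1.25). The light-harvesting gene LHB1B1 was listed as lower with 278 RPKM in WRKY75 RNAi and 624.5 RPKM in wild type (log2 ratio -1.17). The part of tissue makeup in the results was not tested.

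VSP1 had the largest ratio of the 3. Its model with most reads, AT5G24780.1, had 5927 reads in WRKY75 RNAi and 763 reads in wild type. Per length this was 114 RPKM in WRKY75 RNAi and 13.5 RPKM in wild type, so that the wild-type level was 11.8% of the RNAi level. The ratio was 8.44-fold (interval 7.82 to 9.11), or 3.08 on the log2 scale (interval 2.97 to 3.19). The second model, AT5G24780.2, had 3790 reads in WRKY75 RNAi and 450 reads in wild type, a log2 ratio of 3.19 (interval 3.05 to 3.34).

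VSP2 was the least abundant of the 3 and had a ratio close to that of VSP1. AT5G24770.1 had 3286 reads in WRKY75 RNAi and 460 reads in wild type, or 49.4 RPKM in WRKY75 RNAi and 6.37 RPKM in wild type. It was 7.76-fold higher (interval 7.04 to 8.57; log2 ratio 2.96, interval 2.81 to 3.10). AT5G24770.2 had 1942 reads in WRKY75 RNAi and 266 reads in wild type, and its log2 ratio was 2.99 (interval 2.80 to 3.18).

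CORI3 was the most abundant in both libraries and had the smallest ratio. AT4G23600.1 had 21203 reads in WRKY75 RNAi and 4639 reads in wild type, or 215 RPKM in WRKY75 RNAi and 43.3 RPKM in wild type. The ratio was 4.97-fold (interval 4.81 to 5.13; log2 ratio 2.31, interval 2.27 to 2.36). AT4G23600.3 had 17958 reads in WRKY75 RNAi and 3873 reads in wild type, and AT4G23600.2 had 15981 reads in WRKY75 RNAi and 3498 reads in wild type, with a log2 ratio of 2.33 for AT4G23600.3 and of 2.31 for AT4G23600.2. The plot of levels by library and the plot of ratios by model show all 7 models. That each was higher in WRKY75 RNAi was given by the table they were taken from, so nothing is read from 7 of 7.

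**Figure D1:**
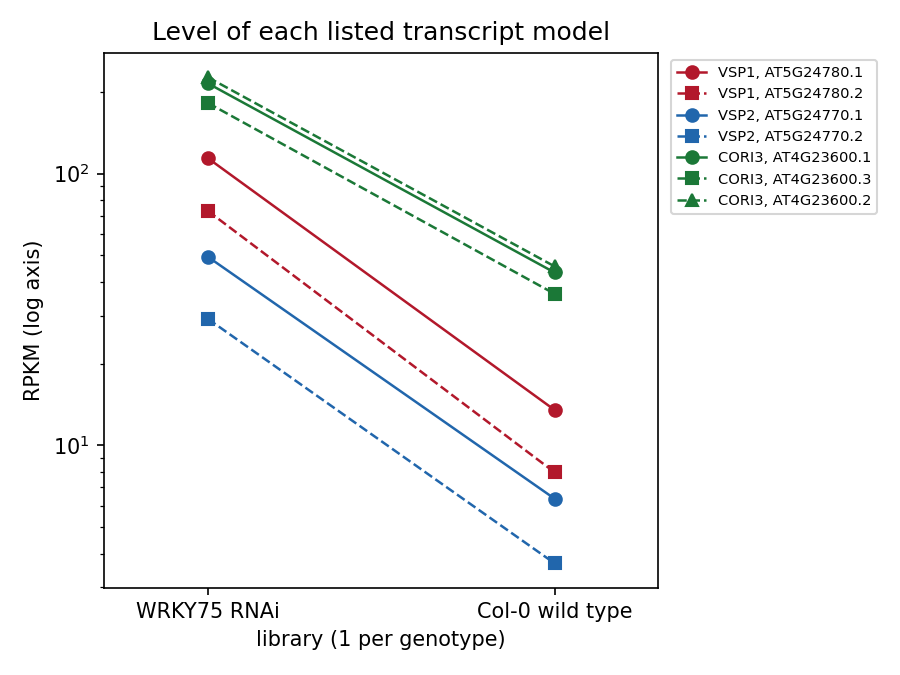
Level in RPKM (log axis) of each of the 7 listed models in the WRKY75 RNAi library (left) and the Col-0 wild-type library (right), 1 library per genotype. Each line joins the 2 values of 1 model, solid for the model with most reads; CORI3 lies above VSP1 and VSP1 above VSP2 in both libraries.

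**Figure D2:**
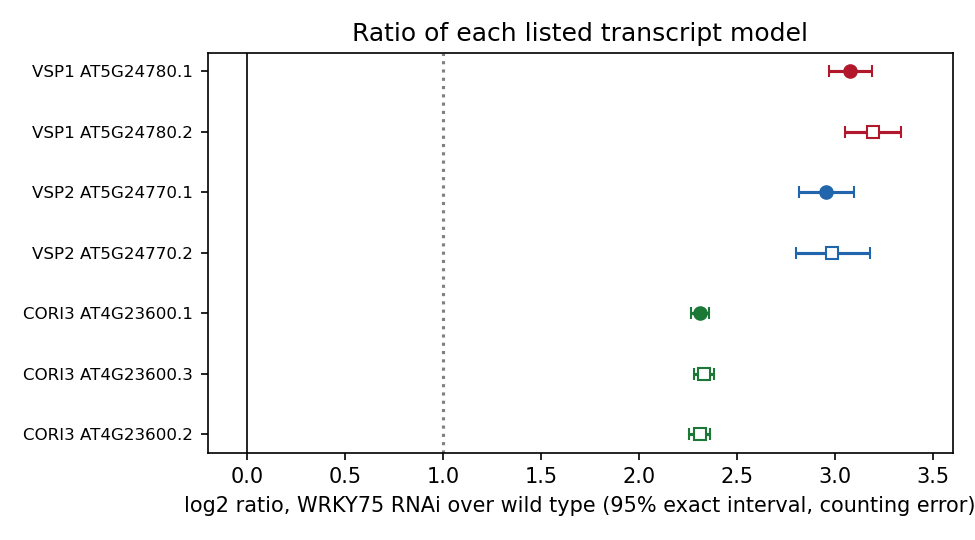
The log2 ratio of library-scaled reads, WRKY75 RNAi over wild type, of each listed model, with exact 95% intervals for counting error; filled points are the models with most reads and the dotted line marks 2-fold. The 4 VSP models lie between 2.96 and 3.19 and the 3 CORI3 models between 2.31 and 2.33.

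Among the 3 pairs of genes, the ratios of VSP1 and VSP2 differed from each other by 0.12 on the log2 scale (interval -0.06 to 0.30), which is within counting error and leaves room for a difference of up to 0.30. Both differed from CORI3 by more than counting error. VSP1 exceeded CORI3 by 0.77 (interval 0.65 to 0.89) and VSP2 exceeded CORI3 by 0.64 (interval 0.50 to 0.80), so that the fold difference of VSP1 was 1.70 times and that of VSP2 1.56 times that of CORI3. These intervals hold no spread between plants. The difference between VSP2 and CORI3 shrank to 0.072 with a pseudocount of 5 RPKM, a value near the wild-type level of VSP2.

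The levels of CORI3 and VSP1 were closer together in WRKY75 RNAi than in wild type. In WRKY75 RNAi, CORI3 was at 1.89 times the RPKM of VSP1, interval 1.83 to 1.94, against 3.21 times in wild type, interval 2.97 to 3.46. VSP1 was at 2.31 times the RPKM of VSP2 in WRKY75 RNAi (interval 2.21 to 2.41) and at 2.12 times in wild type (interval 1.89 to 2.39). The neighbours in the order CORI3, VSP1, VSP2 thus differed by more than counting error in each library. The deposited lengths include introns, which weighs on genes with many of them. With the TAIR10.1 introns (2 in AT5G24780.1 and AT5G24770.1, 6 in AT4G23600.1) subtracted from the deposited length, RPKM was 341 in WRKY75 RNAi and 68.7 in wild type for CORI3, 145 in WRKY75 RNAi and 17.2 in wild type for VSP1, and 61.0 in WRKY75 RNAi and 7.87 in wild type for VSP2. The deposited lengths of the CORI3 and VSP1 models fall 240 and 244 bases short of the TAIR10.1 spans. Over the whole spliced TAIR10.1 transcripts, RPKM was 297 in WRKY75 RNAi and 59.9 in wild type for CORI3, 118 in WRKY75 RNAi and 14.0 in wild type for VSP1, and 60.7 in WRKY75 RNAi and 7.82 in wild type for VSP2. The order of the 3 genes was the same on both scales.

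The models of a locus differ in their ends and in short segments. In TAIR10.1, AT5G24780.1 starts 244 bases before AT5G24780.2, and AT4G23600.1 starts 240 bases before AT4G23600.3 and 506 before AT4G23600.2. VSP1 model AT5G24780.2 keeps 20 bases that are intronic in AT5G24780.1, and CORI3 model AT4G23600.3 keeps 26 bases that are intronic in AT4G23600.1. Both segments are shown because they belong to 1 of these models and not to the other.
VSP1, chr5:8507958-8507977: gactatatatggaaacgcag
CORI3, chr4:12312711-12312736: gacatgttgtgtgttggatttgatag

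VSP2 model AT5G24770.2 keeps a whole intron of 93 bases. In TAIR10.1 the coding sequence of VSP1 is 813 bases in AT5G24780.1 and 678 in AT5G24780.2, that of VSP2 is 798 in AT5G24770.1 and 627 in AT5G24770.2, and that of CORI3 is 1269 in AT4G23600.1, 1143 in AT4G23600.3 and 957 in AT4G23600.2. The division of reads between models was much the same in both libraries. AT5G24780.1 took 61.0% of the listed VSP1 reads in WRKY75 RNAi (interval 60.02 to 61.97) and 62.9% in wild type (interval 60.1 to 65.6). AT5G24770.1 took 62.9% of the VSP2 reads in WRKY75 RNAi and 63.4% in wild type, and AT4G23600.1 took 38.5% of the CORI3 reads in WRKY75 RNAi and 38.6% in wild type. Within each locus, the log2 ratio of the other models differed from that of the model with most reads by between -0.0006 and 0.12, and every such interval included 0. The sources used do not say how reads that fit several models were assigned, so models of 1 locus are not independent measurements.

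VSP1 and VSP2 are near copies, which bears on how reads can be told apart. Of 795 aligned coding bases 719 were identical (90.4%). The longest stretch identical in both is 54 bases, at bases 243 to 296 of the VSP1 coding sequence.
both genes: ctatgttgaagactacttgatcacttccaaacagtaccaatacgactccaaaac

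Elsewhere they differ more. The 60-base ungapped stretch with most differences, 14, begins at base 586 of the VSP1 and base 571 of the VSP2 coding sequence, and capitals mark the differing bases.
VSP1: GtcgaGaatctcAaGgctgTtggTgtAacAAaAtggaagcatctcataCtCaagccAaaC
VSP2: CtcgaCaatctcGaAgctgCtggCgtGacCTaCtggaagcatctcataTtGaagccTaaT

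The share of the VSP1 transcript that a read could not assign depends on the read length, which the sources used do not give. Of 1269 windows of 50 bases in the spliced VSP1 model AT5G24780.1, 5 were identical to a window of VSP2 and 192 (15.1%) were within 2 mismatches of one. At 100 bases, 0 of 1219 windows were identical and 34 (2.79%) were within 2 mismatches. At 36 bases the shares were 4.05% identical and 24.1% within 2 mismatches. These windows cover the TAIR10.1 transcript, and the deposited length falls 244 bases short of its span. The shares over the deposited extent may be larger and were not computed. No 36-base window of any of the 3 transcripts occurred exactly elsewhere in the nuclear chromosomes, outside these 3 genes. The chromosomes were searched unspliced, so a window across an exon junction could match only a copy without that intron. The models with most reads of VSP1 and VSP2 together had 9213 reads in WRKY75 RNAi and 1223 reads in wild type. Their joint log2 ratio was 3.03 (interval 2.95 to 3.12). Dividing shared reads differently between these 2 models would leave this sum unchanged. Reads assigned to the other models, counted more than once or dropped would change it.

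**Figure D3:**
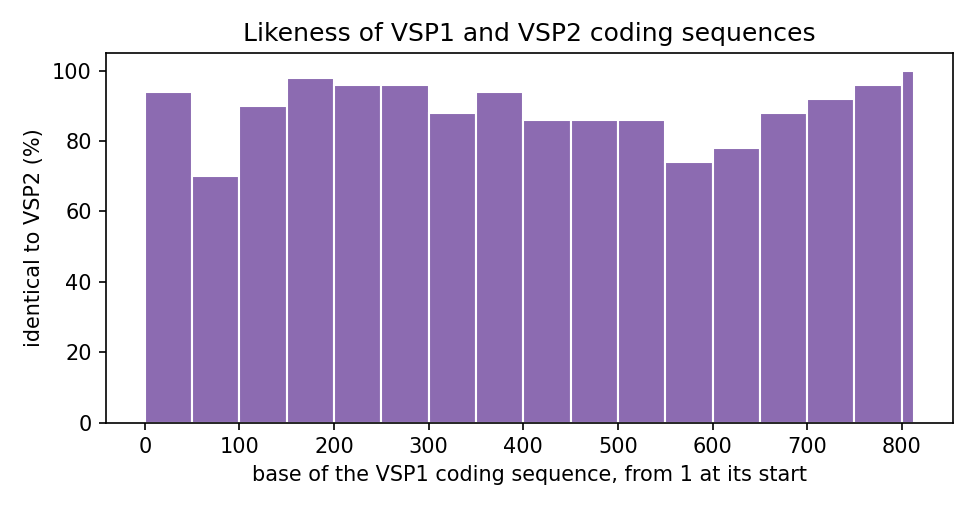
Share of bases (%) of the VSP1 coding sequence that are identical to VSP2, in steps of 50 bases (the last step has 13 bases), by position from the start codon. The steps range from 70.0% to 100%, with the lowest at bases 51 to 100, where VSP2 lacks 13 bases that VSP1 has; bases absent from VSP2 count as not identical.

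CORI3 also has a neighbour in its family. AT4G23590, the next gene on the chromosome, shares 80.7% of 1263 aligned coding bases with it, but of 1839 windows of 36 bases in the CORI3 transcript 0 were identical to AT4G23590 and 20 (1.09%) were within 2 mismatches. AT4G23590 was not listed.

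The 3 genes were also ranked among the loci listed as higher. Of 1229 loci whose model with most reads was listed as higher, CORI3 was 24th, VSP1 37th and VSP2 75th by the difference in RPKM, which was 172 for CORI3, 100.5 for VSP1 and 43.0 for VSP2. By log2 ratio they were 230th (CORI3), 98th (VSP1) and 110th (VSP2) of 1148 such loci with reads in both libraries. Among the 389 of these with at least 100 wild-type reads, VSP1 was 13th, VSP2 14th and CORI3 34th. The median log2 ratio of the 1148 loci was 1.49. Together the models with most reads of the 3 genes took 799.5 RPM (reads scaled by the library total) in WRKY75 RNAi and 141.8 RPM in wild type.

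**Figure D4:**
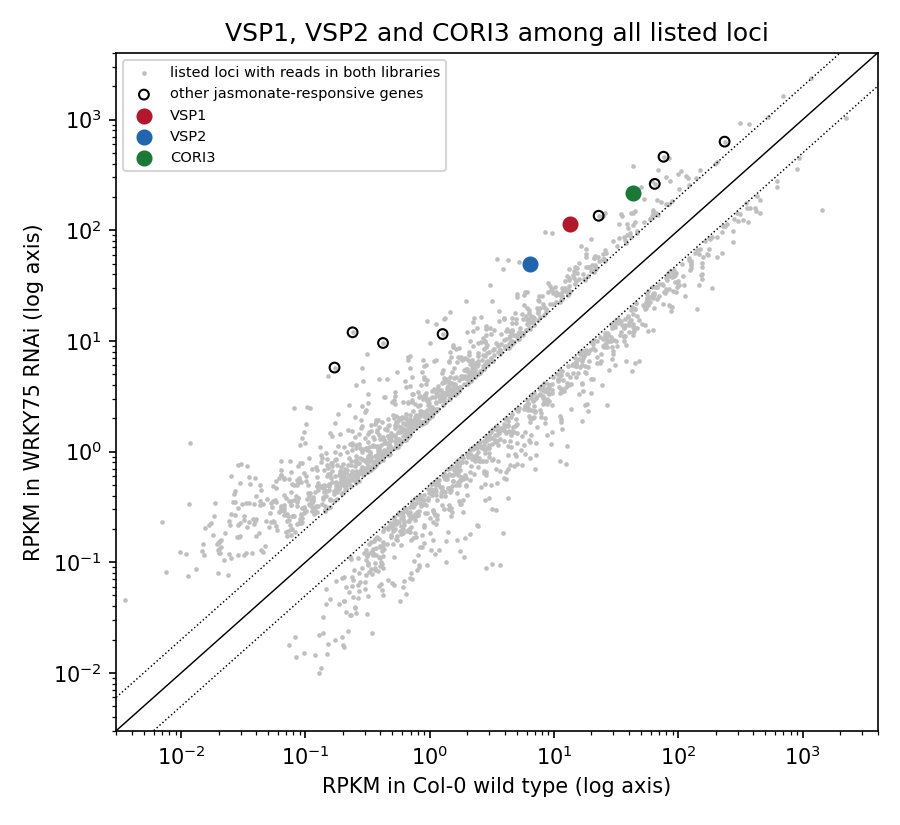
RPKM in WRKY75 RNAi against RPKM in Col-0 wild type (both log axes) of the listed loci with reads in both libraries, with VSP1, VSP2, CORI3 and 8 other jasmonate-responsive genes marked; the solid line is equality and dotted lines 2-fold, and the empty band between them reflects the authors' selection. VSP1 and VSP2 rank 13th and 14th, and CORI3 34th, by ratio among the 389 higher loci with at least 100 wild-type reads.

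Over the 2000 loci with reads in both libraries, those nearest to each gene by Euclidean distance in log2 RPKM of both libraries were named as having the most similar values. With 2 libraries such likeness says only that level and ratio are close. Nearest to CORI3 were JAL23, a jacalin-type lectin gene (236 RPKM in WRKY75 RNAi and 44.0 RPKM in wild type, distance 0.14), LP1, a lipid transfer protein gene (distance 0.29), the arginase gene ARGAH2 (distance 0.33) and AT1G53903 (distance 0.51). Nearest to VSP1 were AT3G28220 (93.9 RPKM in WRKY75 RNAi and 9.63 RPKM in wild type, distance 0.56), the aquaporin gene PIP1;4 (0.71), the ribonuclease gene RNS1 (0.72) and ELI3-1 (0.73). Nearest to VSP2 was AT3G21670, also named NPF6.4, of the nitrate and peptide transporter family. It had 51.7 RPKM in WRKY75 RNAi and 5.18 RPKM in wild type (distance 0.30). Next were the AT14A locus AT3G28300 (0.60), AT5G47330 (0.72) and the heat shock protein gene HSP17.6II (0.74).

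Most relatives of the 3 genes were not listed. Of 7 other genes of the acid phosphatase family of VSP1 and VSP2, AT2G39920 was listed as higher, at 3.56 RPKM in WRKY75 RNAi and 1.73 RPKM in wild type (log2 ratio 1.04, interval 0.70 to 1.39), and 6 were not listed. Of 7 other genes of the CORI3 family, 0 were listed as higher. AT4G28420 was listed as lower on 10 reads in WRKY75 RNAi and 66 reads in wild type (log2 ratio -2.60, interval -3.73 to -1.63), while 6 were not listed, among them TAT3 (AT2G24850), which is known to respond to jasmonate, and SUR1 (AT2G20610), the C-S lyase of glucosinolate synthesis. The table of higher models held 4.32% of the tested models and that of lower models 3.17%.

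Genes upstream in the jasmonate pathway that were listed had ratios near the 2-fold limit of the tables. For comparison, 4.32% of all tested models were listed as higher and 3.17% as lower. In synthesis, 3 of 13 genes were listed as higher and 0 as lower: the lipoxygenase gene LOX2 (log2 ratio 1.02) and the allene oxide cyclase genes AOC1 (2.01-fold) and AOC4 (1.15, on 1552 reads in WRKY75 RNAi and 758 reads in wild type). In perception and repression, 2 of 15 were higher and 0 lower, the JAZ repressor genes JAZ8 (1.14) and JAZ10 (1.02); the receptor gene COI1 was not listed. Of 7 MYC factors and NAC factors downstream of them, MYC2, MYC3 and MYC4 were not listed and RD26, a NAC factor gene, was higher (2.01-fold). Of 4 genes of jasmonate turnover, ST2A, which encodes a sulfotransferase of hydroxyjasmonates, was higher with 354 RPKM in WRKY75 RNAi and 68.2 RPKM in wild type (log2 ratio 2.37, interval 2.33 to 2.42), as was CYP94B3, a hydroxylase of jasmonoyl-isoleucine (1.69). ST2A came closest to CORI3 in ratio among these genes.

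Of 11 other genes known to respond to jasmonate, coronatine or wounding, 8 were listed as higher, 0 as lower, and TAT3, NATA1 and AT3G15356 were not listed. Over all tested models, 4.32% were listed as higher. The median log2 ratio of the 8 was 2.89, and that of all loci listed as higher was 1.49. This list was drawn up with earlier results of these data known, so its count is no independent evidence of a direction. Among the abundant ones, MBP1 and TSA1 had ratios between those of CORI3 and VSP2. MBP1, a myrosinase-binding protein gene, had 462 RPKM in WRKY75 RNAi and 76.0 RPKM in wild type (log2 ratio 2.60, interval 2.57 to 2.64). TSA1, a gene of endoplasmic reticulum bodies, had 135 RPKM in WRKY75 RNAi and 22.8 RPKM in wild type (2.57, interval 2.52 to 2.61). The lectin gene JR1 was at 2.02, and CLH1, a chlorophyllase gene also induced by coronatine, was at 1.42 with 632 RPKM in WRKY75 RNAi and 235.5 RPKM in wild type. MBP2 was at 3.18 (interval 2.93 to 3.45), which includes the ratios of both VSP1 and VSP2. The methyltransferase gene BSMT1 (4.51), the terpene synthase gene TPS03 (5.07) and the thionin gene THI2.1 (5.64) had larger ratios, from wild-type levels between 0.171 and 0.421 RPKM. MBP1 and MBP2, like the AOC and PDF1.2 genes, have close copies, so the split of reads between copies is uncertain.

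The listed genes of the ethylene-jasmonate branch were lower in WRKY75 RNAi. Of its 6 genes, 0 were listed as higher and 2 as lower, the defensin gene PDF1.2b with 108 RPKM in WRKY75 RNAi and 236.6 RPKM in wild type (log2 ratio -1.13, interval -1.22 to -1.04) and the transcription factor gene ERF1 on 13 reads in WRKY75 RNAi and 68 reads in wild type (-2.27, interval -3.25 to -1.40). ORA59, PR4, HCHIB and PDF1.2 were not listed, which does not mean that they were equal in both libraries. Over all tested models, 4.32% were listed as higher and 3.17% as lower.

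**Figure D5:**
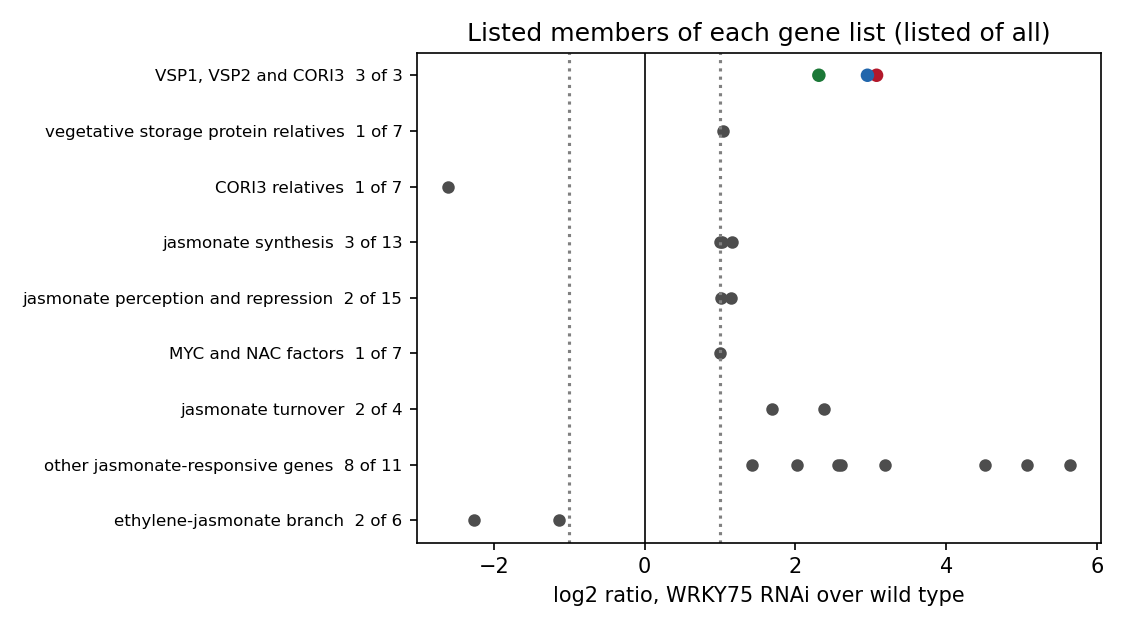
The log2 ratio, WRKY75 RNAi over wild type, of every listed locus of each gene list, with the number listed of all on the list; dotted lines mark 2-fold in each direction, within which nothing is listed. VSP1, VSP2 and CORI3 lie between 2.31 and 3.08, the listed synthesis and repression genes just past 1, and both listed genes of the ethylene-jasmonate branch below -1.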

How the data were processed

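Polyadenylated leaf RNA was sequenced, 1 library per genotype, and aligned with Bowtie to TAIR10 per the submitters' processing notes. Read counter, read length, strand setting and filters are not stated. The authors deposited read counts, RPKM, the log2 ratio of RPKM, p-values with false discovery rates, and other data, namely model lengths, per the file headers. Deposited p-values were used only to infer the 31475 models tested (ranks whole to 0.00206 on average over 692 rows).

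Ratios were recomputed from RPKM (within 7.29e-08 of those deposited). Per locus, the model with most reads over both libraries was the main value. The row with no gene identifier (0.0384% of the WRKY75 RNAi and 0.103% of the wild-type total) was left out. No test was made, since 1 library per genotype gives no spread. Exact 95% intervals were made with scipy 1.17.1 and checked on simulated counts of independent reads, which cannot show an effect of reads counted in pairs. Of 2254 listed models found in TAIR10.1, 458 had a deposited length equal to annotated end minus start, which includes introns. Alignments used biopython 1.88 (match 2, mismatch -3, gap opening -5, gap extension -2, or -0.5 upstream). Named were the 3 genes, WRKY75, up to 6 listed genes per list by size of ratio, and the 4 nearest loci per gene; JR1 and CLH1, the remaining listed genes, SEP4, LHB1B1 and unlisted or neighbouring genes were added after values were seen. Members and lists were chosen with earlier results of these data known.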

Additional observations from a re-analysis of the deposited data

How the results depend on the processing

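No paired analysis was possible because each genotype has 1 library and the labels carry no replicate numbers; leaving out a library was not possible either. Under 27 alternatives the log2 ratios of the 3 genes ranged from 1.21 to 3.19, all above 0 and past 2-fold, and 24 past 4-fold. For the other listed models and the sums over models, being past 2-fold was given by the limit of the table. Of the 27, 15 stayed within the counting interval. Those outside it were as follows. With a pseudocount of 5 RPKM, VSP1 was at 2.68, VSP2 at 2.26 and CORI3 at 2.19, and with 1 RPKM VSP2 was at 2.77. Unscaled reads gave 2.96 for VSP1 and 2.19 for CORI3, and scaling by the reads of the other listed loci 2.96 and 2.20. Setting the median of all listed loci (1.10) to 0 gave 1.98 for VSP1, 1.86 for VSP2 and 1.21 for CORI3; higher loci outnumber lower ones there. VSP1 model AT5G24780.2 gave 3.19. Past 8-fold, 1 of 3 genes was left.

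Alternatives for differences between the genes, and levels over the whole spliced transcript, were chosen after seeing the data. A pseudocount of 5 RPKM gave 0.43 for VSP1 minus VSP2, 0.50 for VSP1 minus CORI3 and 0.072 for VSP2 minus CORI3, which was 0.49 with 1 RPKM; larger pseudocounts shrink low levels by construction. At 4-fold, 0 acid phosphatase relatives, 0 synthesis, 0 perception and repression and 0 MYC and NAC genes were left as higher, 1 turnover gene as higher and 1 ethylene-jasmonate gene as lower. With at least 10 reads in each library no list count moved by over 1.5 times. Depth limits little here (at least 460 reads per gene and library); the missing replicates limit every statement on genotype.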

Other observations

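Among the 5 protein-coding genes or pseudogenes on each side of a member, few were listed. Beside VSP2, AT5G24760 was higher in WRKY75 RNAi (log2 ratio 1.18), and the pseudogene AT5G24775 between VSP2 and VSP1 was not listed. No window of 36 bases of either VSP transcript occurred exactly in AT5G24775 on either strand. Windows with mismatches were compared with this pseudogene in a single orientation, so nothing is read from them. Next to CORI3, AT4G23610 was lower in WRKY75 RNAi (log2 ratio -2.09), opposite to CORI3.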
